A study of Mus musculus with 26 samples.

Results

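Ribosomal protein genes of the cytosolic ribosome are described here in mouse embryonic stem cells (ESC) that lack 1 or all forms of Nap1l1, a histone chaperone, before and during treatment with retinoic acid, a vitamin A derivative that drives ESC out of pluripotency. Members were chosen by name and annotation: protein-coding genes of GENCODE M21 whose symbol is that of a large-subunit protein (Rpl), a small-subunit protein (Rps or Rpsa) or a protein of the acidic stalk (Rplp), without the ribosomal S6 kinases. The rule took 84 of the 55471 genes in the table, 46 of the large subunit, 31 of the small subunit and 7 paralogs (Rpl3l, Rpl7l1, Rpl10l, Rpl22l1, Rpl36al, Rpl39l and Rps27l). Another 6 genes with matching symbols are annotated as pseudogenes and were left out. All 84 members passed the low-count filter. The 77 genes of the 2 subunits are called core members below.

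Bulk mRNA of 26 libraries was sequenced, all from KH2, a mouse ESC line made for inserting inducible transgenes. The 3 genotypes were wild type (WT), NAP1L1 alpha knock-out (alpha-KO) and NAP1L1 knock-out (full-KO), each harvested on days 0, 2 and 4 of retinoic acid. Every group held 3 libraries except full-KO at day 0, which held 2. The library names of each knock-out share 1 prefix, so each may be 1 clone, and a difference between lines cannot be told apart from 1 of genotype.

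A ribosome is built from ribosomal RNA and about as many proteins as there are core members, most of which the cell makes in equal numbers. Ribosome production takes a large part of the energy of growing cells, and it is tied to growth signals through mTOR and to transcription factors of the Myc family. Most mRNAs for ribosomal proteins start with a C followed by a run of C and T, the terminal oligopyrimidine (TOP) motif, through which mTOR and the RNA-binding protein Larp1 control their translation and stability. ESC grow and divide fast, and mouse ESC are known to make many ribosomes. A few paralogs replace their parent protein in some tissues, such as Rpl10l and Rpl39l in male germ cells and Rpl3l in muscle.

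Most core members shared a run of C and T near the start of transcription. RefSeq promoter windows (GRCm38.p6) matched 64 members, 57 of them core. Those not matched included Rpl3, Rpl7, Rpl8, Rpl17, Rpl21, Rpl23a, Rpl29, Rpl30, Rpl32, Rpl36, Rplp1, Rps14, Rps20, Rps27a and Rps29. The sequences below run from 40 bases before to 20 bases after the start of transcription, on the strand of the gene, with runs of at least 8 C or T in capitals; the run that opens the Rps18 sequence begins before the part shown. Rps6, Rps18, Rpl15 and Rpl28 are shown as core genes whose run lies at the start. Rps27 and Rpl39 stand beside the paralogs Rps27l and Rpl39l, which took another course in these cells. The marked runs of Rps27l and Rpl39l end before the start shown, so they lie outside an mRNA that begins there.
Rps6 (chr4:86857348-86857407, minus strand): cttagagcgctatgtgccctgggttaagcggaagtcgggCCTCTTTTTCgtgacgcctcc
Rps18 (chr17:33955646-33955705, minus strand): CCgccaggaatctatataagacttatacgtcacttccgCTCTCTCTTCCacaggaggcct
Rpl15 (chr14:18270967-18271026, minus strand): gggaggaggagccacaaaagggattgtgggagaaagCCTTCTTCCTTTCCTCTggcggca
Rpl28 (chr7:4792925-4792984, plus strand): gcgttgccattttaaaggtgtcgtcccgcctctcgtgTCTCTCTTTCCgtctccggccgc
Rps27 (chr3:90213629-90213688, minus strand): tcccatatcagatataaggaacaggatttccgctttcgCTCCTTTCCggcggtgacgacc
Rps27l (chr9:66946046-66946105, plus strand): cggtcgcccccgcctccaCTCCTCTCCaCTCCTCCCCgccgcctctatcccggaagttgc
Rpl39 (chrX:37085203-37085262, minus strand): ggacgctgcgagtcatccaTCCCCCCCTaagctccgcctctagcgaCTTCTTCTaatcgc
Rpl39l (chr16:10170188-10170247, plus strand): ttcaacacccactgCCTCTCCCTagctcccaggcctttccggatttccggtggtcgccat

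A run of at least 8 C or T lay within 50 bases of the start in 48 of 57 core members (84.2%), against 39.27% of the 27025 genes with a window. A C followed by 4 more C or T at the annotated start itself was found in 13 core members (22.8%), against 3.01% of all genes; annotated starts are often a few bases off. Windows from 250 bases before to 50 after the start were also searched on both strands for cores of known factor motifs. A gene counted if any of its windows held the match, and the 27025 genes include some not tested here. CCGGAAG, an ETS-family core, was found for 24 of 57 core members (42.1%) and for 9.93% of all genes. ATGGCGG, a YY1 core, lay in 9 (15.8%) against 4.69%, and CACGTG, the E-box that Myc-family factors bind, in 6 (10.5%) against 8.09%. The letters CTTTCC, which overlap the runs of C and T, lay on the gene strand within 50 bases of the start in 18 (31.6%) against 5.43%. These matches describe sequence alone.

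Total counts ran from 13537267 to 20569706 per library. Nap1l1 itself was lower in the knock-outs on each day, with no overlap, at 569 to 621 CPM (counts scaled for library size) in alpha-KO and 397 to 401 in full-KO against 997 to 1068 in WT at day 0. All 7 ESC markers checked fell in WT by day 4, and their summed level went from 3037 to 3196 CPM at day 0 to 69.5 to 78.1 at day 4. It stayed higher in the knock-outs at day 4, at 259 to 278 CPM in alpha-KO and 388 to 410 in full-KO. Of 10 fibroblast markers, all 10 were detected in each group, with a summed level at day 0 of 2299 to 3055 CPM in WT, 1250 to 1930 in alpha-KO and 272 to 396 in full-KO. At day 4 that sum was 1595 to 1709 CPM in WT, 840 to 940 in alpha-KO and 701 to 765 in full-KO. The fibroblast marker level moved with genotype, and its part in the differences below was not tested.

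Members took 5.15% ± 0.0866 (SD, n = 3) of all counts in WT at day 0, 3.41% ± 0.095 at day 2 and 2.39% ± 0.0242 at day 4. In alpha-KO the shares were 5.26% ± 0.075, 3.68% ± 0.0729 and 2.87% ± 0.0549, and in full-KO they were 5.51% ± 0.0184 (n = 2), 3.70% ± 0.0844 and 2.89% ± 0.0996. The share fell with each step in all 3 genotypes. At day 4 the 6 knock-out libraries, 2.78% to 2.98%, all lay above the WT libraries, 2.37% to 2.41%. At day 2 the knock-out libraries also lay above WT, at 3.62% to 3.80% against 3.33% to 3.51%. At day 0 full-KO did so, at 5.50% to 5.52% against 5.05% to 5.20%, while alpha-KO overlapped WT. The 306 pseudogenes named after ribosomal proteins took 0.0299% to 0.0697% of counts in addition, so few reads were placed in these. Pseudogenes under other names were not counted.

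**Figure D1:**
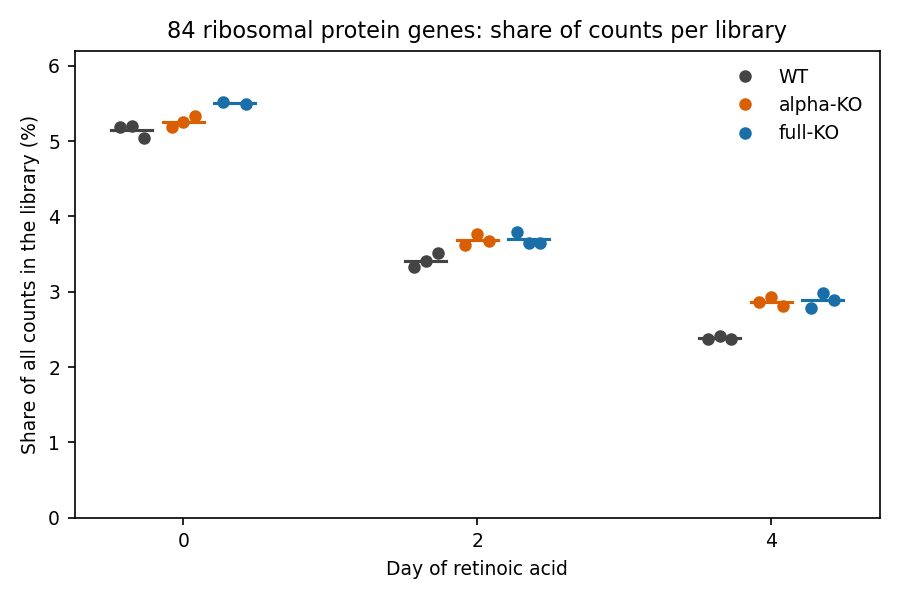
Share of all counts in each library that fell in the 84 ribosomal protein genes (y axis, percent, from 0) by day of retinoic acid (x axis); points are libraries, bars group means, colours genotypes. WT falls from 5.15% to 2.39%, and at day 4 the knock-out libraries sit between 2.78% and 2.98%, above WT.

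Per kilobase of mRNA, the core members had a median level of 719 CPM per kb in WT at day 0, with quartiles of 512 and 1128. The stalk protein Rplp1 led at 2674 CPM per kb, followed by Rpl8 (2303), Rpl4 (2185), Rps12 (2150) and the stalk protein Rplp2 (2008). Rpl23a (32.1 CPM per kb), Rps10 (25.5) and Rpl24 (2.39) stood far below the rest. Of the exon bases of Rpl24, 47% are shared on the same strand with an overlapping gene model, as are 20.6% of those of Rps10, and 59.7% of those of Rpl23a overlap a gene of the opposite strand. How reads on such bases were counted is not stated in these sources; the counts of these 3 genes, of Rpl13a (35.4% shared on the same strand), of the paralog Rpl36al (24.5%) and of Rpl35 (66.2% overlapped by the opposite strand) are uncertain. Rpl31 (25.3%), Rps25 (24.8%), Rpl5 (24.3%) and Rpl30 (20.4%) also overlap genes of the opposite strand.

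The whole group fell in WT cells during retinoic acid. At day 2, 82 of 84 members were lower than at day 0 and none was higher, where 70.7% of the 18412 genes tested were called in either direction, 34% lower. At day 4 all 84 were lower (77.4% of all genes called, 36.7% lower and 40.7% higher). Called means a Benjamini-Hochberg adjusted p under 0.05 in edgeR's quasi-likelihood test over all genes. Median log2 fold changes of the members were -0.80 at day 2 and -1.27 at day 4, against 0.06 and 0.10 for all genes tested. In WT the median core member held 57.4% of its day 0 level at day 2 and 41.7% at day 4. In bulk RNA, fewer cells of a type and less RNA per cell cannot be told apart, and CPM show a share of the mRNA, not ribosomal mRNA per cell.

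The core members moved as a block. Their log2 fold changes at day 4 had an SD of 0.22, against 2.02 over all genes tested, a set not matched to them for level. The medians of the large and small subunits were -1.31 and -1.21. Rpl8, a large-subunit protein near the peptidyl transferase centre, read 2175, 2186 and 2105 CPM at day 0, 1016, 1077 and 1101 at day 2 and 702, 694 and 694 at day 4. The 3 days did not overlap, and the fall by day 4 was among the largest of the core (log2 fold change -1.63 ± 0.04 SE, adjusted p = 1.8e-36). Rps6, the small-subunit protein that S6 kinases phosphorylate downstream of mTOR, read 727, 693 and 680 CPM at day 0, 400, 412 and 403 at day 2 and 267, 257 and 272 at day 4. It held 37.9% of its day 0 level at day 4, the lower quartile of the core members, again with no overlap between days (-1.40 ± 0.04). Rpl13a, known also from a complex that silences inflammatory mRNAs, went from 173, 171 and 169 CPM to 57.3, 52.9 and 58.7 (-1.60 ± 0.05), on counts that overlapping gene models may share.

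Rps10 and Rpl24 had the lowest fold changes of the core, -2.0 ± 0.14 and -2.01 ± 0.48, but on the uncertain counts named above (Rpl24 had 0.759 to 2.64 CPM at day 0). The smallest fall of the core was that of Rps19, the small-subunit protein most often mutated in Diamond-Blackfan anaemia. It read 416, 419 and 415 CPM at day 0, 309, 321 and 335 at day 2 and 267, 274 and 268 at day 4 (-0.63 ± 0.04, adjusted p = 1.0e-17). Its days did not overlap either, so the fall was small but clear of the replicate spread. Rps28 (-0.76 ± 0.06) and Rpl15 (-0.86 ± 0.04), a large-subunit protein also linked to that anaemia, followed.

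Timing differed between members. From day 2 to day 4, 80 of 84 members fell further and none rose (59.4% of all genes called, 29.2% lower and 30.2% higher), with a median of -0.47. Rps14, a small-subunit protein whose loss underlies the anaemia of the 5q- syndrome, fell early: it read 734, 744 and 690 CPM at day 0, then 347, 304 and 342 at day 2 and 323, 330 and 333 at day 4. Its day 2 and day 4 libraries overlapped (-0.01 ± 0.05, not called). Rps28 did the same, with 122, 112 and 127 CPM at day 2 and 110, 123 and 122 at day 4 (-0.02 ± 0.06). Rps18, in the head of the small subunit, also fell mostly before day 2 (-1.13 ± 0.05, among the largest core falls of that interval). Rpl6 (-0.86 ± 0.04), Rpl13a (-0.86 ± 0.05), Rps12 (-0.83 ± 0.04) and Rpl35a (-0.77 ± 0.06) had the largest core falls after day 2. Rps12 read 808, 853 and 826 CPM at day 2 and 474, 451 and 471 at day 4. Rpl24 and Rpl36al were the other members not called in that step, and Rpl3l and Rpl36al those not called at day 2.

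**Figure D2:**
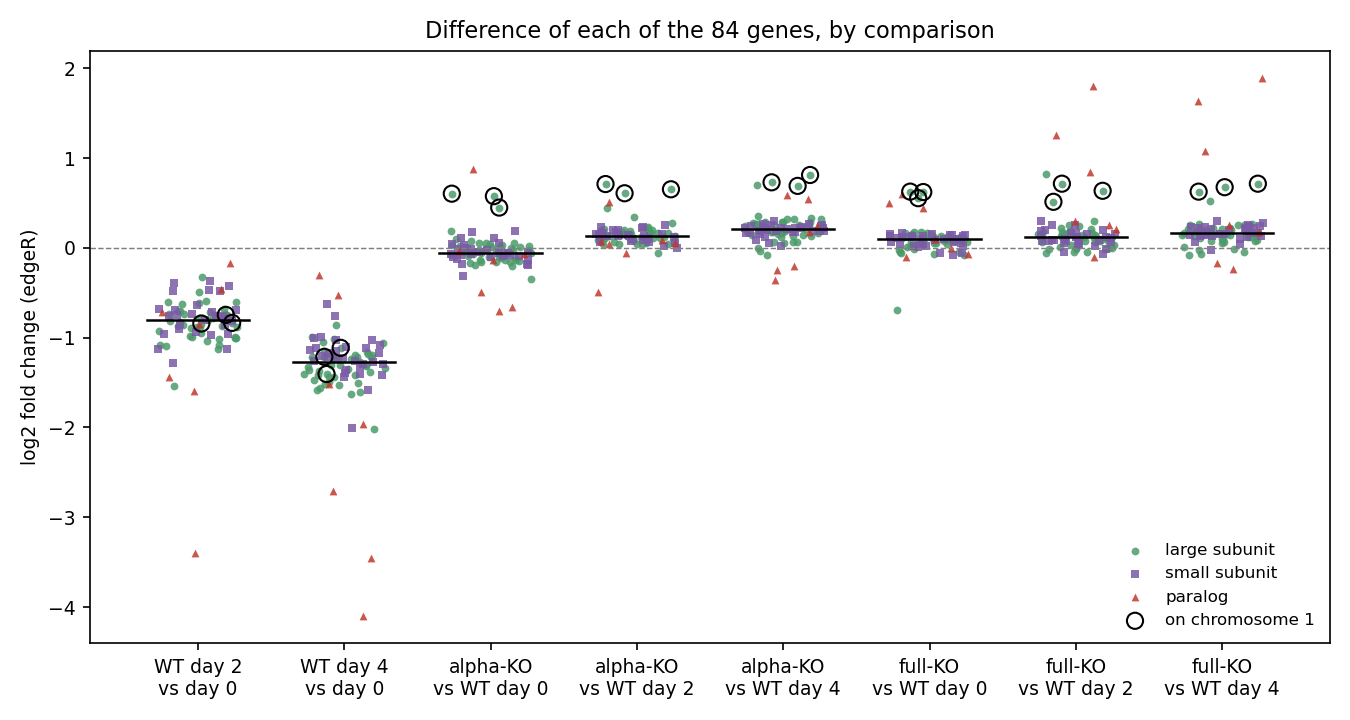
Log2 fold change (y axis) of each of the 84 genes in 8 comparisons (x axis); points are genes, shaped and coloured by subunit or paralog, black bars are medians of the 84, and circles mark the 3 genes on chromosome 1. The core falls together in WT (medians -0.80 and -1.27). Knock-out differences lie close to 0 apart from chromosome 1 genes, paralogs and Rpl24, which had low counts.

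Untreated alpha-KO cells showed small differences in both directions. At day 0, 9 members were higher and 20 lower than in WT (38.6% of all genes called, 17.7% higher and 20.9% lower), with a median of -0.06 against -0.03 for all genes. This split depended on scaling: it was 12 and 12 with library totals alone, 11 and 14 with upper quartile scaling and 8 and 25 by DESeq2. Leaving out 1 library, WT replicate 2 or alpha-KO replicate 1 or 3, left 10, 12 and 13 lower. The 9 higher members were a smaller share than among all genes, and the 20 lower ones a slightly larger share. Counted in both directions, members were called less often than all genes. Rpl30 read 134, 133 and 119 CPM in alpha-KO against 148, 146 and 149 in WT and was lower (-0.20 ± 0.06), and so were Rps21 (-0.19 ± 0.05), Rps27 (-0.18 ± 0.04) and Rps10 (-0.31 ± 0.12). The libraries of Rpl30 did not overlap between genotypes. Of the 9 higher members, 5 lie on chromosomes 1 and 14 and are described below.

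Full-KO cells had slightly more ribosomal protein mRNA at day 0. There, 28 members were higher and none lower (33.9% of all genes called, 16.2% higher), with a median of 0.10 against -0.01 for all genes. It depended on scaling: 17 were higher with RLE scaling and 18 with library totals alone or DESeq2, and a filter of at least 1 CPM in at least 3 libraries also gave 18. A fit of only the 2 groups gave 43. The count rests on the 2 libraries of full-KO: it was 9 without replicate 1, 17 without replicate 2 and 16 without WT replicate 3. Rpl12, a protein at the base of the stalk, read 1580 and 1637 CPM in full-KO against 1427, 1439 and 1387 in WT, with no overlap (0.18 ± 0.04, adjusted p = 0.00021). The fibroblast marker sums differed most between these 2 groups, as given above.

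By day 2 both knock-outs stood above WT. In alpha-KO 51 members were higher and none lower (40.2% of all genes called, 19.9% higher and 20.3% lower), with a median of 0.13 against 0.01 for all genes; with library totals alone the counts were 40 and 1. Full-KO had 44 higher and none lower (47.6% called, 23.8% higher), with a median of 0.12 against 0.02. Rpl3, a large-subunit protein needed early in its assembly, was among them in both (0.28 ± 0.04 and 0.25 ± 0.04). Without WT replicate 1 or 2 of day 2, 2 members and 1 member were lower in full-KO.

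At day 4 the differences were largest. In alpha-KO 69 members were higher and 1 lower (52.7% of all genes called, 28.7% higher and 24% lower), with a median of 0.21 against 0.06 for all genes. In full-KO 59 were higher and 1 lower (49.6% called, 25.1% higher and 24.5% lower), with a median of 0.17 against 0.02; without full-KO replicate 2, 2 were lower. Both knock-out comparisons use the same WT libraries. In each the 1 lower member was Rps27l. A log2 difference of 0.21 is small next to the fall that all 3 genotypes went through: the median core member held 48.9% of its day 0 level at day 4 in alpha-KO and 43.3% in full-KO, against 41.7% in WT.

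Single genes show the size of the day 4 difference. Rpl8 read 814, 819 and 808 CPM in alpha-KO and 729, 780 and 767 in full-KO, against 702, 694 and 694 in WT (0.22 ± 0.04 and 0.12 ± 0.04). Rps6 read 306, 305 and 296 CPM in alpha-KO and 310, 322 and 303 in full-KO, against 267, 257 and 272 in WT (0.19 ± 0.04 and 0.23 ± 0.04). For both genes no knock-out library overlapped WT. Rpl13a stood highest above WT in alpha-KO among called core genes outside chromosome 1, with 68.1, 72.6 and 75.6 CPM against 57.3, 52.9 and 58.7 (0.36 ± 0.05, adjusted p = 2.1e-07), on the overlapped counts noted above. In full-KO that place was held by Rps23, a protein of the decoding centre, with 241, 242 and 253 CPM against 197, 206 and 195 (0.30 ± 0.04, adjusted p = 3.7e-08). Neither gene overlapped WT in these libraries. Rps2 (-0.02 ± 0.04) and Rpl19 (-0.07 ± 0.05) were not called in full-KO.

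The change from day 0 to day 4 was tested between genotypes. In alpha-KO it was less negative than in WT for 63 members and more negative for 1, Rps27l (44% of all genes called, 24.2% higher and 19.7% lower), with a median difference of 0.25 against 0.06 for all genes. Rpl13a had one of the largest differences (0.52 ± 0.07, adjusted p = 4.8e-08), being lower than WT at day 0, at 151, 149 and 159 CPM, and higher at day 4, again on counts that other gene models may share. Rpl41, which encodes a very short basic peptide, followed with 509, 566 and 574 CPM at day 0 and 323, 352 and 325 at day 4 in alpha-KO, against 630, 645 and 578, then 257, 259 and 287 in WT (0.49 ± 0.08). Rps10 (0.57 ± 0.20) and Rps21 (0.44 ± 0.08) were the other named genes.

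For full-KO the same test called 14 members higher and 2 lower (35.2% of all genes called, 19.5% higher and 15.7% lower), with a median of 0.09 against 0.07 for all genes. In both directions these are smaller shares than among all genes. The counts also depended on the settings: they were 55 and 0 with library totals alone, 32 and 1 with upper quartile scaling, and from 6 to 18 higher when 1 library was left out. The libraries that moved the higher count past 1.5-fold were WT day 0 replicate 2 (8), WT day 4 replicates 1 and 3 (9 each), full-KO day 0 replicate 2 (6) and full-KO day 4 replicate 2 (7). Rps21 (0.22 ± 0.08) and Rpl39 (0.22 ± 0.09), a protein of the exit tunnel, were among those higher, and Rpl19 (-0.24 ± 0.07) and Rps2 (-0.16 ± 0.06) lower. Without WT day 0 replicate 3, full-KO day 0 replicate 1 or 2, or full-KO day 4 replicate 1, 1 member was lower.

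Core members of the 2 knock-outs differed from each other mainly before treatment. At day 0, 34 members were lower in alpha-KO than in full-KO and none was higher (29% of all genes called, 14.6% lower), with a median of -0.11 against 0.00. Library totals alone gave 22 lower and 3 higher, and without full-KO replicate 1 or 2 or alpha-KO replicate 1 there were 9, 22 and 19 lower. Rps26, which contacts mRNA at its exit channel, read 733, 796 and 786 CPM in alpha-KO and 905 and 925 in full-KO (-0.24 ± 0.04, adjusted p = 8.5e-06). Rps29 read 385, 394 and 375 CPM against 478 and 449 (-0.27 ± 0.07). The groups did not overlap for either gene. Rps12 (-0.23 ± 0.04) and Rpl27a (-0.22 ± 0.06) were the next largest of the called core genes. The paralogs Rpl39l (-1.20 ± 0.14, adjusted p = 5.5e-09) and Rpl10l (-1.11 ± 0.10, adjusted p = 7.5e-13) differed far more.

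Later the core members of the 2 knock-outs were close, but Rpl10l and Rpl39l stayed lower in alpha-KO. Rpl10l differed by -1.21 ± 0.09 at day 2 and by -1.36 ± 0.12 at day 4. Rpl39l differed by -1.30 ± 0.18 at day 2 and by -1.05 ± 0.22 at day 4. At day 2, 5 members were higher and 5 lower in alpha-KO (25.3% of all genes called, 13% higher and 12.3% lower), or 1 and 6 with upper quartile scaling or library totals. The 5 lower were all paralogs, and the higher ones included Rps24, Rps25, Rpl5 and Rps9, each by 0.12 to 0.15. Leaving out alpha-KO replicate 2 or 3 or full-KO replicate 3 of that day left 2 higher, full-KO replicate 2 left 3, and full-KO replicate 1 left 9 higher and 3 lower. At day 4, 12 were higher and 3 lower (32.7% called, 17.4% higher and 15.4% lower), but 5 and 11 with upper quartile scaling and 4 and 11 with library totals; without full-KO replicate 1 there were 3 higher and without alpha-KO replicate 2 there were 6. Rpl38, known for its part in translating Hox mRNAs, read 65.6, 78.3 and 68.0 CPM in alpha-KO and 56.6, 62.0 and 60.7 in full-KO (0.24 ± 0.06, adjusted p = 0.0024), without overlap. Rps2 (0.24 ± 0.04), Rpl13a (0.19 ± 0.05) and Rpl27 (0.19 ± 0.06) were also higher, and Rps12 was the 1 lower core gene (-0.13 ± 0.04).

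Rpl7, Rpl31 and Rpl37a, the 3 members on chromosome 1, had the largest rises of the called core genes in both knock-outs on each day. Rpl7 read 2049, 2040 and 1993 CPM in alpha-KO and 2089 and 2110 in full-KO at day 0, against 1371, 1351 and 1358 in WT (0.58 ± 0.03 and 0.63 ± 0.04). At day 4 it read 877, 851 and 827 CPM in alpha-KO and 823, 825 and 813 in full-KO, against 525, 512 and 503 in WT (0.73 ± 0.03, adjusted p = 1.7e-22, and 0.68 ± 0.03, adjusted p = 3.4e-21). Knock-out and WT libraries were far apart on each day, while the gene fell with time in each genotype like other members. Rpl31, a protein at the end of the exit tunnel, read 473, 508 and 491 CPM in alpha-KO and 490 and 504 in full-KO at day 0, against 330, 336 and 303 in WT (0.60 ± 0.04 and 0.62 ± 0.05). At day 4 it read 232, 258 and 243 CPM and 221, 228 and 237, against 142, 139 and 137 (0.81 ± 0.05 and 0.71 ± 0.05). Rpl37a, a zinc-finger protein, read 417, 449 and 432 CPM in alpha-KO and 469 and 462 in full-KO at day 0, against 322, 318 and 311 in WT (0.45 ± 0.04 and 0.55 ± 0.05). No knock-out library of these genes overlapped WT on those days.

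Other genes of chromosome 1 were shifted the same way. The 1112 tested genes there that are no members had median log2 fold changes of 0.41, 0.40 and 0.50 in alpha-KO on days 0, 2 and 4 and of 0.27, 0.27 and 0.34 in full-KO. Of them, 53.1% were higher and 11.4% lower in alpha-KO at day 4. The members of chromosome 14, Rps24 and Rpl15, were higher in alpha-KO by 0.19 and 0.19 at day 0, and the 613 other genes there had a median of 0.10. In full-KO at day 4 they were higher by 0.12 ± 0.04 and 0.25 ± 0.04, beside a median of 0.01. Rpl15 read 221, 213 and 223 CPM in alpha-KO and 220, 214 and 207 in full-KO at day 4, against 178, 177 and 183 in WT. What shifts genes of chromosome 1 in these lines was not tested. Without the 5 members of both chromosomes, 64 of 79 were higher in alpha-KO at day 4 and 54 of 79 in full-KO, but 4 in place of 9 were higher in alpha-KO at day 0.

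**Figure D3:**
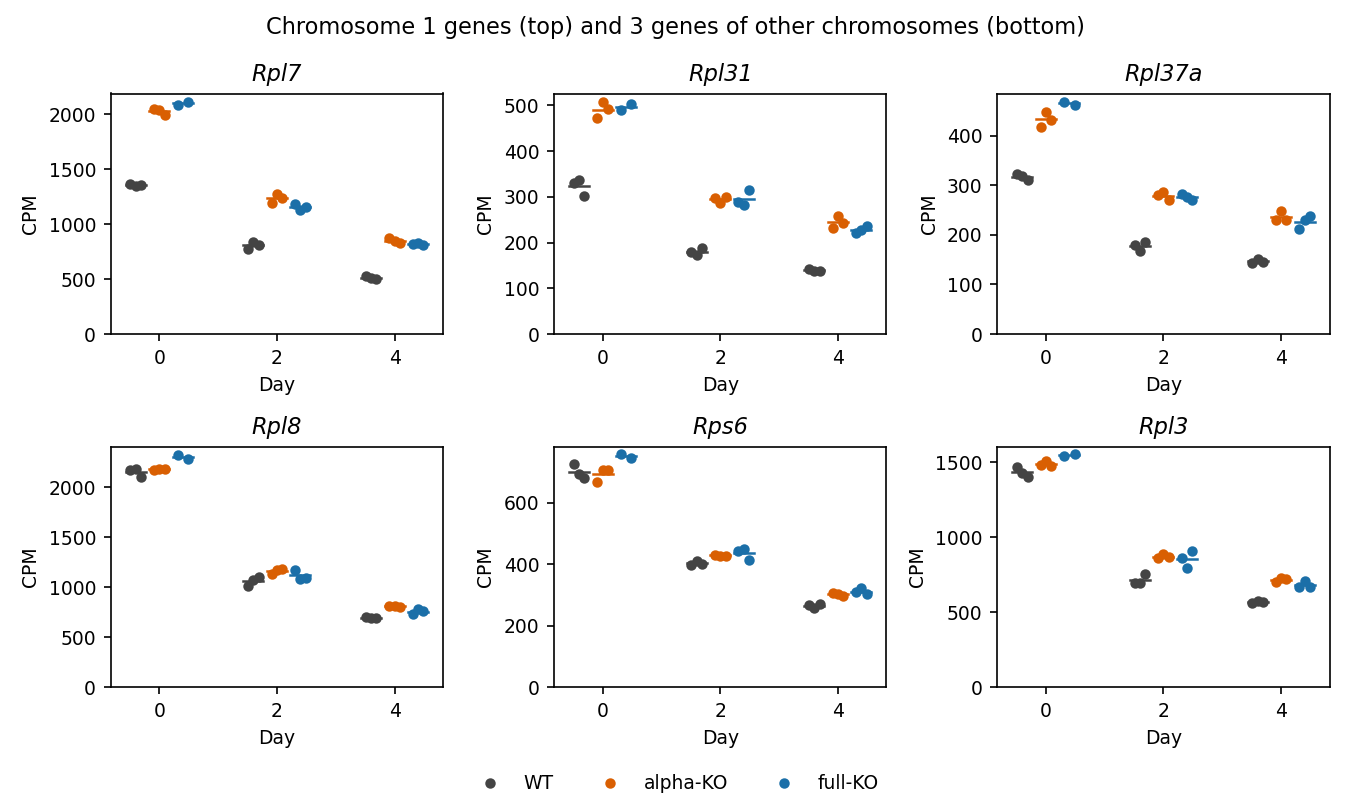
CPM per library (y axis, from 0) by day (x axis) for Rpl7, Rpl31 and Rpl37a of chromosome 1 (top) and for Rpl8, Rps6 and Rpl3 (bottom); points are libraries, bars group means, colours genotypes. The top genes keep a gap between knock-outs and WT on each day (Rpl7 from 1993 to 2110 CPM against 1351 to 1371 at day 0), and the bottom genes differ less.

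Paralogs covered a wider range than the core. Rpl39l, which replaces Rpl39 in the exit tunnel in male germ cells, had the largest fall of all members. In WT it read 21.6, 24.7 and 21.9 CPM at day 0, 2.35, 1.62 and 2.44 at day 2 and 1.59, 1.19 and 1.21 at day 4 (-4.10 ± 0.19, adjusted p = 1.3e-23). Most of the fall had happened by day 2 (-3.40 ± 0.18). Per kilobase it stood at 11.2% ± 1.21 (SD, n = 3) of Rpl39 at day 0 and at 1.5% ± 0.233 at day 4, so the balance of the pair moved as well. In full-KO it read 34 and 30.1 CPM at day 0 and 4.23, 4.13 and 3.95 at day 4, above each WT library of those days (0.50 ± 0.14 and 1.64 ± 0.24). In alpha-KO it was lower than WT at day 0, at 13.9, 15.4 and 12.6 CPM (-0.70 ± 0.13). WT had only 1.19 to 2.44 CPM at days 2 and 4, so sizes that use those days are less certain.

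Rpl10l, an autosomal copy of the X-linked Rpl10 that germ cells use while the X is silent, followed the same order of genotypes. WT read 31.9, 32 and 32.8 CPM at day 0 and 2.68, 2.86 and 3.22 at day 4 (-3.45 ± 0.12, adjusted p = 9.8e-29). Full-KO kept more, with 43.8 and 44.2 CPM at day 0, 27.3, 31.6 and 26.7 at day 2 and 10.8, 10.2 and 11.8 at day 4 (1.90 ± 0.13 against WT at day 4, adjusted p = 2.7e-16). Alpha-KO started below WT, at 19.2, 22.8 and 19.4 CPM (-0.66 ± 0.09), and ended above it, at 3.78, 4.33 and 4.69 (0.54 ± 0.16). Full-KO lay above both other genotypes on each day without overlap, and the 2 knock-outs differed by -1.36 ± 0.12 at day 4. Per kilobase Rpl10l fell from 4.41% ± 0.153 to 0.925% ± 0.102 of Rpl10 in WT.

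Rpl22l1, the paralog that Rpl22 protein represses, fell faster than its parent. It read 90.2, 87.4 and 86.3 CPM in WT at day 0, 28.1, 30.4 and 29 at day 2 and 20.7, 23.2 and 23.4 at day 4 (-1.96 ± 0.07), while Rpl22 fell by 1.01 on the log2 scale. The pair stood at 57.8% ± 0.735 per kilobase at day 0 and at 29.7% ± 2.58 and 29.7% ± 2.06 on days 2 and 4, so the ratio dropped before day 2 and then held. Knock-outs had like ratios at day 0, 54.9% ± 5.46 in alpha-KO and 56.7% ± 1.96 in full-KO. Rpl7l1, a relative of Rpl7 found in precursors of the large subunit, fell in WT by 1.52 on the log2 scale, from 309, 316 and 310 CPM to 110, 105 and 112. It was higher at day 4 in alpha-KO (0.18 ± 0.04) and full-KO (0.26 ± 0.04).

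Rps27l departed from the group. It encodes a near copy of Rps27 and is known as a target of p53. In WT it read 166, 166 and 162 CPM at day 0, 141, 136 and 161 at day 2 and 126, 142 and 130 at day 4, the smallest fall of all members (-0.30 ± 0.05, adjusted p = 8.0e-07). Per kilobase it rose from 27.8% ± 0.172 to 45.2% ± 1.30 of Rps27. With library totals alone the change at day 2 turned from -0.17 ± 0.05 to 0.008. At day 4 it was lower in alpha-KO, at 102, 107 and 103 CPM (-0.36 ± 0.05, adjusted p = 1.1e-07), and in full-KO, at 110, 113 and 116 (-0.23 ± 0.05, adjusted p = 0.00017), with no overlap with WT.

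Other p53 targets were also mostly lower in the knock-outs than in WT at day 4. Of 12 listed, 10 were higher and 1 lower in WT at day 4 (median 1.87), where 40.7% of all genes were higher. In both knock-outs 11 were lower and 1 higher than WT on that day (medians -1.12 and -0.80). Among all genes 24% were lower in alpha-KO and 24.5% in full-KO. Perp rose by 4.69 ± 0.11 in WT and was lower in alpha-KO (-2.16 ± 0.09) and full-KO (-1.58 ± 0.08), and Cdkn1a, the cell cycle inhibitor p21, did likewise (2.43 ± 0.08, -1.44 ± 0.08 and -1.08 ± 0.07). Unlike these, Rps27l itself fell in WT. Whether p53 has a part in the lower Rps27l of the knock-outs was not tested.

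Rpl3l and Rpl36al were near the limit of detection. Rpl3l, the muscle form of Rpl3, had 0.858 to 1.17 CPM in WT at day 0 and fell by day 4 (-2.70 ± 0.54). It did not pass the test against WT in either knock-out on any day. Rpl36al read about 0.710% of Rpl36a per kilobase, and its fall (-0.53 ± 0.23, adjusted p = 0.039) rests on counts that an overlapping gene model may share.

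**Figure D4:**
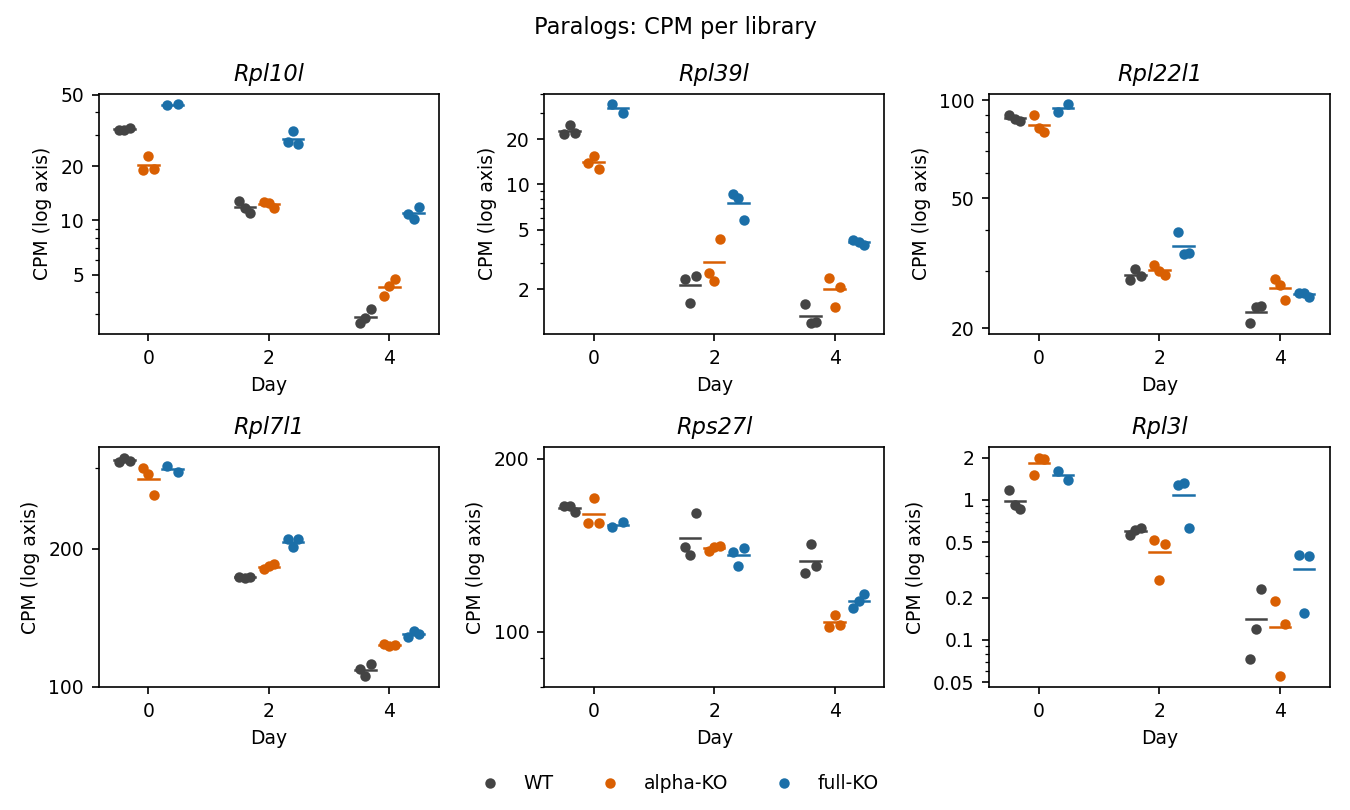
CPM per library (y axis, logarithmic) by day (x axis) for 6 paralogs; points are libraries, bars group means, colours genotypes. Full-KO lies above WT for Rpl10l and Rpl39l on each day, and Rps27l is lowest in the knock-outs at day 4 (102 to 116 CPM against 126 to 142 in WT).

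Other genes of ribosome production and translation fell with the members in WT, where 36.7% of all genes tested were lower at day 4. Of 15 genes for RNA polymerase I and its factors, which make ribosomal RNA, all 15 were lower at day 4 (median -1.34), among them Polr1b, a catalytic subunit (-2.27 ± 0.05). All 30 listed ribosome assembly factors were lower (median -1.60), including Dkc1, the pseudouridine synthase of box H/ACA particles (-2.57 ± 0.04), and Rrp1b (-2.42 ± 0.05). Translation factors and other genes with TOP mRNAs fell less: 14 of 15 were lower (median -0.94), with Eef1d at -1.57 ± 0.04 and Naca at -1.41 ± 0.04. The 7 tested hosts of small nucleolar RNAs were all lower (median -1.89), such as Snhg5 (-2.65 ± 0.07). Fau (-0.88) and Rack1 (-1.09), ribosomal proteins that the naming rule leaves out, were lower too.

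Regulators moved in both directions. Of 15 genes of mTOR signalling and Larp1, 7 were higher and 6 lower in WT at day 4 (median 0.03). Among all genes tested 40.7% were higher and 36.7% lower, so this list was split much like the rest. The mTOR inhibitor gene Ddit4 rose (1.07 ± 0.08), while Larp1 (-1.58 ± 0.04) and the translation repressor Eif4ebp1 (-1.59 ± 0.05) fell. Of 10 transcription factors linked to ribosomal protein genes, 8 were lower and 1 higher (median -0.90). Mycn fell by 3.28 on the log2 scale (SE 0.06), and Mxd4, an antagonist of the Myc family, rose (2.87 ± 0.07).

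In the knock-outs at day 4 several of these lists held more genes above than below WT. Among all genes 28.7% were higher and 24% lower in alpha-KO, and 25.1% were higher and 24.5% lower in full-KO. Of the assembly factors, 20 were higher and 1 lower in alpha-KO (median 0.18) and 13 higher and 1 lower in full-KO (median 0.10). Of the higher ones, 4 in each lie on chromosome 1, and without its genes 16 of 26 were higher in alpha-KO (median 0.13) and 9 of 26 in full-KO (median 0.08). Dkc1 was higher in both (1.10 ± 0.05 and 1.18 ± 0.05). The polymerase I list was split, 7 higher and 3 lower in alpha-KO and 7 higher and 4 lower in full-KO. Of the TOP translation genes, 9 were higher and 2 lower in alpha-KO and 7 higher and 1 lower in full-KO, or 8 and 6 higher of 14 without chromosome 1. Of the snoRNA hosts 6 of 7 were higher in each, or 4 of 5 without chromosome 1. For mTOR genes the counts were 3 higher and 5 lower in alpha-KO and 2 higher and 8 lower in full-KO. From the transcription factor list, Mycn was higher in both (1.25 ± 0.06 and 0.57 ± 0.06) and Mxd4 lower (-0.51 ± 0.06 and -0.63 ± 0.06). These genes alone do not show how that list as a whole moved.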

How the data were processed

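Poly(A) RNA libraries (KAPA Stranded mRNA-Seq kit, RNeasy extraction, per the labels' protocols) were aligned to mm10 with STAR 2.7.1a after FastQC, per the submitters' processing notes. The authors deposited raw read counts, 1 column for each library. Which tool and annotation gave the counts, and whether strand was used, is not given in the sources used here. Counts of overlapping genes and near-identical copies are therefore uncertain. Of 55471 IDs, 55230 matched GENCODE M21 (GRCm38).

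Counts were fitted with edgeR 4.0.16 (R 4.3.3): filterByExpr left 18412 genes, TMM scaling, 9 group means (17 residual degrees of freedom; a common coefficient of biological variation of 0.0495), quasi-likelihood tests, Benjamini-Hochberg adjustment over all genes, threshold 0.05. The procedure was run on simulated counts for alpha-KO against WT at day 0, with the same spread for every gene. That setting is simpler than these data and does not cover the other comparisons. CPM are counts over TMM-scaled library sizes. After ±, log2 fold changes have their SE, and shares and ratios their SD. Levels per kilobase use the principal mRNA of GENCODE M21. Nothing in the labels tells whether the replicates came from separate cultures, so p-values measure only the spread between these samples, which may be technical. The members, gene lists and comparisons were chosen with earlier results of these data known. Named genes are the paralogs with their parents, up to 4 core members with the largest called rise and fall in each comparison, and up to 3 called genes of each list, of which a few are not reported here; Rpl8, Rps6, Rps19, Rps28, Rpl15, Rps14, Rpl3, Rps24 and the least changed genes were added after their values were seen. Alternatives were other scalings (RLE, upper quartile, library totals, TMM without members), other low-count filters, DESeq2 1.42.0, fits of only the groups compared, a replicate block, each library left out, and members outside chromosomes 1 and 14 or listed genes outside chromosome 1, these last chosen after the data were seen. Figures were drawn with matplotlib.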

Additional observations from a re-analysis of the deposited data

Results flagged for a closer look

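Members whose change from day 0 to day 4 differed from that of WT, by an interaction test in edgeR, are listed here. In alpha-KO these were 63 members with a higher and 1 with a lower value, where 44% of all genes were called (24.2% higher). In full-KO they were 14 and 2, a smaller share than the 35.2% called among all genes (19.5% higher), and the higher count ran from 6 to 55 under the alternatives. Named members with a higher value in alpha-KO were Rpl39l (log2 difference 1.29), Rpl10l (1.2), Rps10 (0.57), Rpl13a (0.52), Rpl41 (0.49), Rps21 (0.44), Rpl22l1 (0.31) and Rpl7l1 (0.31), and Rps27l was lower (-0.32). In full-KO, Rpl10l (1.45), Rpl39l (1.14), Rpl7l1 (0.32), Rps21 (0.22) and Rpl39 (0.22) were among those higher, and Rpl19 (-0.24) and Rps2 (-0.16) lower. No group held enough libraries for a check of single outlying samples. Markers of ESC and of fibroblasts moved between the same groups, and their part was not tested.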

How the results depend on the processing

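All 3 comparisons within WT kept their counts within 1.5 times under each alternative run. Replicate numbers did not pair the libraries: deviations of same-numbered libraries correlated between -0.218 and 0.218 (mean -0.004) and 9 of 26 libraries correlated best with their own number; with the replicate block full-KO at day 0 had 24 members higher in place of 28, and no other count moved by more. Counts that moved past 1.5 times, and ranges with 1 library left out, follow. Alpha-KO at day 0: 12 lower with library totals, 4 higher without chromosomes 1 and 14, 10 to 22 lower with 1 library left out. Alpha-KO at day 2: 1 lower with library totals. Full-KO at day 0: 17 higher with RLE, 18 with library totals, with at least 1 CPM in at least 3 libraries and with DESeq2, 43 with only the groups compared, 9 to 25 with 1 library left out. Full-KO with 1 library left out had 0 to 2 lower at day 2 and 1 to 2 at day 4. Alpha-KO against full-KO at day 0: 3 higher and 22 lower with library totals, 9 to 31 lower with 1 library left out. At day 2: 1 higher with upper quartile scaling or library totals, 3 without chromosomes 1 and 14, and with 1 library left out 2 to 9 higher and 3 to 5 lower. At day 4: 5 higher and 11 lower with upper quartile scaling, 4 and 11 with library totals, 7 higher with only the groups compared, 3 to 15 higher with 1 library left out. Difference of change in full-KO: 32 higher and 1 lower with upper quartile scaling, 55 and 0 with library totals, 28 and 1 with only the groups compared, and with 1 library left out 6 to 18 higher and 1 to 3 lower. Library totals moved the median of all genes by over 0.1, from 0.06 to 0.23 and from 0.10 to 0.25 in WT at days 2 and 4, from 0.02 to 0.13 in full-KO at day 4 and from 0.07 to 0.20 in its difference of change; members stood as far from the median of all genes as before. In WT at day 4 the share of counts was 2.36% for core members and 2.42% with named pseudogenes (2.39% as reported). In full-KO at day 0 the same shares were 5.45% and 5.58% (5.51%). Among 2519 values of named members under alternatives, 2414 kept direction and call, 83 lost and 21 gained the call, and 1, Rps27l at day 2 in WT with library totals (0.008), reversed. The cause of these moves was not tested. Where 1 library was left out of full-KO at day 0, the lone library was assumed to vary like the other groups. Depth limits Rpl24, Rpl3l and Rpl36al, which had few CPM. It also limits Rpl39l in WT at days 2 and 4 and Rpl10l in WT at day 4.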
